A study of Mus musculus with 9 samples.

Results

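C-type lectin receptors bind sugars and other ligands on microbes and on damaged or altered host cells. The genes studied here were all those whose symbol starts with Clec or Cd209, together with Mrc1, Mrc2, Ly75 and Cd207, taken from probe sets that name 1 gene, with the probe set of the highest mean over the arrays where a gene had several. The rule found 44 genes among the 19938 measured. It goes by symbol, so it also took in genes such as Clec16a, which is known for a role in autophagy rather than in sugar binding. Clec2, Clec2f, Cd209h and Clec17a were on the list of symbols looked for and were not analysed here.

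The levels came from 9 Affymetrix mouse gene arrays in 3 groups of 3. The first group was wild-type dendritic cells without stimulation, and the second was wild-type dendritic cells 4 h after 100 ng/ml LPS, the bacterial lipopolysaccharide that activates Toll-like receptor signalling. The third was JmjD2d-knockdown dendritic cells, also 4 h after 100 ng/ml LPS. The Kdm4d gene encodes JmjD2d, a demethylase of histone H3. All cells were grown from bone marrow progenitors cultured with 20 ng/ml of each of the cytokines IL-3, IL-6 and SCF. They were differentiated for 8 days, in GM-CSF (a 4% supernatant) throughout, with SCF at 5 ng/ml added during the first 4 days and left out of the last 4 days. The knockdown cells carried a hairpin against the JmjD2d coding sequence from the pSir-delta U6CHisD retrovirus and were selected with histidinol at 2 mM. The wild-type groups had not been transduced. Arrays of cells with a control hairpin or of knockdown cells without LPS were not analysed here, so the hairpin, the virus and the selection cannot be told apart, and an induction within the knockdown cells was not measured. The study's design text speaks of independent cultures, and the strain, sex and age of the animals are not given in the sources used here.

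Several C-type lectin receptors signal much as antigen receptors do. Dectin-1 carries its own activating motif, and Dectin-2, Mincle and MDL-1 pair with the adaptors Fcer1g or Tyrobp. These recruit the kinase Syk, and from there the CARD9, BCL10 and MALT1 proteins activate NF-kB. Others, such as the mannose receptor and the receptor encoded by Ly75, mainly carry ligands into the cell for antigen presentation, and a further group carries inhibitory motifs that recruit phosphatases. In mice many of these genes lie side by side in clusters on chromosome 6 and, for the Cd209 genes, on chromosome 8.

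Levels are log2 values after RMA, and a difference of 1 on this scale is a doubling. The hybridisation of each probe set differs, so levels are compared between groups for 1 gene and not between genes. A change is called where limma's moderated two-sided test over all 19938 genes gave a Benjamini-Hochberg adjusted p under 0.05. Errors with a log2 difference are standard errors (SE) from that model, with 3 arrays in each group. In bulk RNA, fewer cells that express a gene and less RNA of it per cell cannot be told apart. A fit that also pairs the arrays by replicate number is called the paired fit, and it is given where it changes a call. Counts at an unadjusted p under 0.05 are a description only, because the share of all genes at that threshold was not counted.

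Of the 44 genes, 4 rose after LPS, against 3.99% of all genes, and 1 was higher in the knockdown, against 0.401% of all genes. Promoters are shown for the 3 called genes with the largest LPS differences (Clec4e, Ly75 and Clec5a). That of the gene that differed in the knockdown (Clec2i) is also shown, so that all can be read beside their values. Each is the 250 bases before the annotated start on the gene's own strand, from RefSeq on GRCm38.p6. Capitals mark matches to TTGCNNAA, the pattern searched for C/EBP, on either strand.
Clec4e, chr6:123289872-123290121, minus strand: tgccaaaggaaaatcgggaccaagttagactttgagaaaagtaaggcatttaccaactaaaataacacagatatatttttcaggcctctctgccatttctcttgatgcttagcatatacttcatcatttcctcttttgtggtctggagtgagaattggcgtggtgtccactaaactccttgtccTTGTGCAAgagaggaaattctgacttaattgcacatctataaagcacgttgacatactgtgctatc
Ly75, chr2:60383274-60383523, minus strand: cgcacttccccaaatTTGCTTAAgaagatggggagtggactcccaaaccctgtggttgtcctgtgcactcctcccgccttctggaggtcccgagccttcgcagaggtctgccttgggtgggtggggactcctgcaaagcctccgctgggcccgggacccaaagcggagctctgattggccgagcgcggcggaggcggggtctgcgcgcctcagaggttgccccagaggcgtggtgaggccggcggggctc
Clec5a, chr6:40585806-40586055, minus strand: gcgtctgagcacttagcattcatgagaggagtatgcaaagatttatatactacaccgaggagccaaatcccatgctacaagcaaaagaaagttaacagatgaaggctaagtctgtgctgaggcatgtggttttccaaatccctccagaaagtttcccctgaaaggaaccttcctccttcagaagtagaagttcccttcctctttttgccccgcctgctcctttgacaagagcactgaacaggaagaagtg
Clec2i, chr6:128887337-128887586, plus strand: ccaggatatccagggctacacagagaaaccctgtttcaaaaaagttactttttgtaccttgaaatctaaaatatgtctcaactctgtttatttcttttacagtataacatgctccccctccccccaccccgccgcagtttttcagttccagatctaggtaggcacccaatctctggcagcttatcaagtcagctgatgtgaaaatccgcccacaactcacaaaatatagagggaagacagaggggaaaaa
The match in the Clec4e promoter begins 66 bases before the start and that in the Ly75 promoter 235 bases before it, and the Clec5a and Clec2i windows hold none of the 6 patterns searched. A promoter was found for 36 of the 44 genes. The C/EBP pattern was in the window of 6 of these 36 genes and in 9.56% of all 32851 promoter entries. The AP-1 pattern (TGANTCA) was in 8 of 36 and in 6.75% of all entries. Clec2e, also called after LPS and not shown here, was among the 8. An NF-kB pattern was in 1 of 36 (Clec2l) and in 7.25% of all entries, a STAT pattern (TTCNNNGAA) in 1 and 7.02%, and an interferon response pattern (GAAANNGAAA, which can share letters with the STAT pattern) in 2 and 2.98%. The PU.1 pattern (GAGGAAGT) was in none of the 36 windows and in 2.44% of all. Such a match is a description of the letters in the window and not a binding site.

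The targeted gene was read first. Kdm4d stood at 7.24, 7.65 and 7.62 in unstimulated wild-type cells, at 7.79, 7.54 and 7.74 after LPS, and at 7.43, 7.11 and 7.40 in the knockdown. The knockdown values were all below the LPS-treated wild-type values, by 0.37 on average (SE 0.13, 95% confidence interval of the difference -0.68 to -0.07). That is 77.1% of the wild-type level, and the difference did not pass the test over all genes (limma adjusted p = 0.278). The labelled cell type was checked against markers of dendritic cells, with the median of the 19938 genes on each array as the reference. Of these markers, 5 of 10 lay above that median on all 9 arrays, among them Itgax at 12.29 to 13.30. Flt3 (6.49 to 7.05) and Dpp4 (6.12 to 6.45) were low. By the same reference, 7 of 8 monocyte and macrophage markers also lay above the median on all 9 arrays. This check therefore does not separate dendritic cells from monocytes and macrophages. The markers of natural killer cells lay below the same median on all arrays in 8 of 8 cases. Over all 35556 deposited probe sets, a different reference, the 9 arrays had medians between 7.22 and 7.32.

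In wild-type cells, LPS raised Clec4e, Ly75, Clec5a and Clec2e, and no member of the 44 fell by the test across all genes. This is 9.09% of the members, against 10.9% of all genes called in either direction. By direction, 4 of 44 were higher against 3.99% of all genes, and 0 of 44 were lower against 6.86% of all genes. At an unadjusted p under 0.05 there were 10 members above and 5 below, without a count over all genes at that threshold. Of the members, 4 were higher and 2 lower in the paired fit, which called 14.8% of all genes. The median difference of the members was 0.04, as was that of all genes. The groups did not overlap for 10 members that were higher and 6 that were lower after LPS, against 12.8% and 16.5% of all genes.

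**Figure D1:**
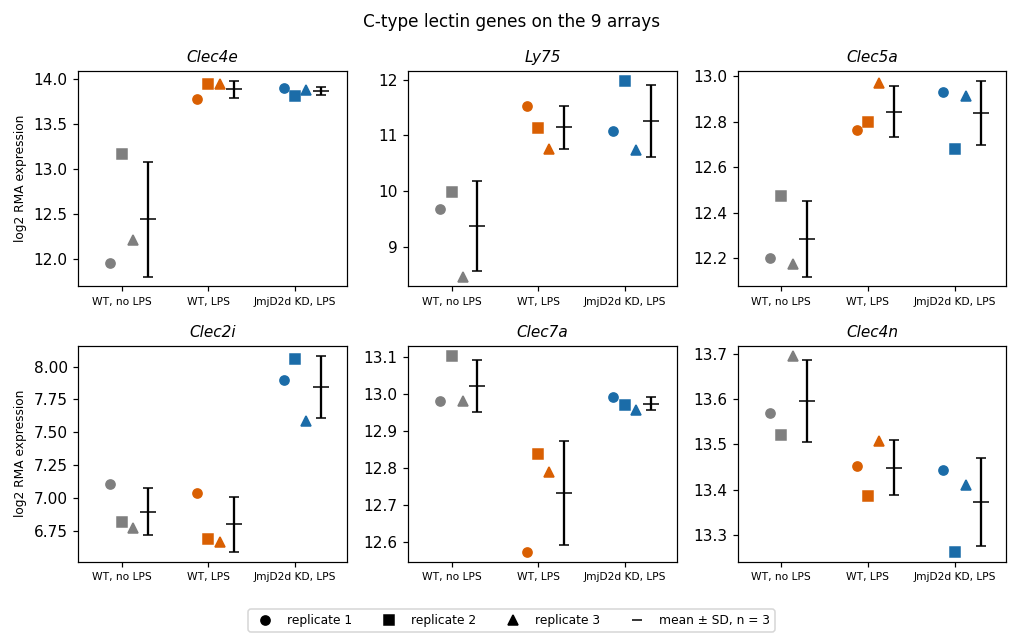
Log2 expression (RMA) of 6 C-type lectin genes on each of the 9 arrays, by group (WT, wild-type; KD, knockdown), with marker shapes for the replicate number and bars for the mean ± SD of 3 arrays. Clec4e, Ly75 and Clec5a were higher in both LPS-treated groups than without LPS, and Clec2i was higher only on the 3 knockdown arrays, at 7.59 to 8.05, than on the other arrays.

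Clec4e encodes Mincle, an activating receptor for mycobacterial glycolipid and for material from dead cells. Its level was 11.95, 13.17 and 12.21 without LPS and 13.78, 13.94 and 13.95 with it. All 3 LPS arrays were above all 3 unstimulated arrays, and the second unstimulated array was 1.08 above the mean of the other two. The difference was 1.45 (SE 0.26), or 2.73-fold (95% interval 0.84 to 2.05 on the log2 scale), with a limma adjusted p of 0.012. The call was lost without the third unstimulated array (difference 1.33) and without the third LPS array (difference 1.42), with adjusted p up to 0.055.

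Ly75 encodes an endocytic lectin receptor that carries antigen into dendritic cells for presentation. It stood at 9.67, 9.98 and 8.46 without LPS and at 11.54, 11.14 and 10.76 after LPS. The groups did not overlap, and the gain was 1.87, 1.16 and 2.30 within the replicate numbers. The mean difference was 1.78 (SE 0.44), or 3.43-fold, with a limma adjusted p of 0.039. Leaving out any 1 of the arrays of either group ended the call, except the second unstimulated array, with adjusted p of 0.031 to 0.136. The call was also lost with only the 2 groups in the fit and with all deposited probe sets tested together. The paired fit gave an adjusted p of 0.0078.

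Clec5a encodes MDL-1, a myeloid receptor that signals through Tyrobp. It stood at 12.20, 12.47 and 12.18 without LPS and at 12.76, 12.80 and 12.97 after LPS. The groups did not overlap, and the difference of 0.56 (SE 0.11), or 1.47-fold, passed the test (limma adjusted p = 0.015). Without the first or the third unstimulated array or the third LPS array it was 0.50 to 0.52 and no longer passed, with adjusted p up to 0.066.

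The fourth call, Clec2e, was small. Its level was 5.13, 5.22 and 5.06 without LPS and 5.33, 5.40 and 5.43 after LPS, a difference of 0.26 (SE 0.06, limma adjusted p = 0.031). This probe set is among the dimmest, the 4703 genes at or below a level of 6.32, with 9 of the 44 members. The call was lost when the arrays were quantile-normalised again (difference 0.19) and when they were centred on their medians (0.25), with only the 2 groups in the fit, and without the first or the third array of either group (0.22 to 0.28). Those 4703 genes had a median LPS difference of 0.06.

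The genes of Dectin-1 and Dectin-2, the receptors for fungal glucans and mannans, were lower on the LPS arrays and were not called by limma. Clec7a, which encodes Dectin-1, stood at 12.98, 13.10 and 12.98 without LPS and at 12.57, 12.84 and 12.79 after it. The LPS arrays were all lower, by 0.29 on average (SE 0.08), and the adjusted p was 0.053 in limma and 0.049 in the paired fit. Clec4n, which encodes Dectin-2, stood at 13.57, 13.52 and 13.70 without LPS and at 13.45, 13.39 and 13.51 after it. Its groups did not overlap either, and the difference of -0.15 (SE 0.07) did not pass the test (limma adjusted p = 0.251, paired 0.174).

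Clec7a was also called after a renewed quantile normalization, with an intensity trend in the variance model, and without the second LPS array. Clec1a, a melanin-binding lectin of the same cluster, was likewise called by the paired fit and without the second LPS array. It stood at 7.56, 7.14 and 7.01 without LPS and at 6.66, 6.98 and 6.40 after it, a difference of -0.55 (SE 0.18) with an adjusted p of 0.085 in limma and 0.043 in the paired fit. Clec9a, the receptor for exposed actin on dead cells and a mark of cross-presenting dendritic cells, stood at 8.22, 7.85 and 7.35 without LPS and at 6.89, 7.24 and 6.87 after it. Its values did not overlap, and its difference of -0.80 (SE 0.34) did not pass either fit (adjusted p = 0.175 in limma, 0.066 paired). The inhibitory receptor gene Clec12a differed by 0.04 and Clec12b by 0.09. Clec1b, which encodes the podoplanin receptor of platelets, differed by -0.14. In this cluster 0 of 6 measured members passed limma's test after LPS, 3 were lower at an unadjusted p under 0.05, and 2 were lower in the paired fit.

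The Dectin-2 and DCIR cluster held 9 measured members, of which Clec4e alone was called after LPS. Clec4d, which encodes the Mincle partner MCL, was 0.29 higher on average, and its values overlapped (12.20, 12.90 and 12.63 without LPS against 12.73, 12.95 and 12.93). Clec4a2, which encodes the inhibitory receptor DCIR, was 11.67, 11.72 and 11.85 without LPS and 10.92, 11.38 and 11.35 with it. Its difference of -0.53 (SE 0.17) had an adjusted p of 0.080 in limma and 0.066 in the paired fit, and the groups did not overlap. Clec4a1 moved the other way, from 11.003, 11.53 and 11.61 to 11.75, 12.19 and 12.23, a difference of 0.68 (SE 0.27, limma adjusted p = 0.155). The differences of Clec4a3, Clec4a4, Clec4b1, Clec4b2 and Clec4n lay between -0.39 and 0.12, with adjusted p of 0.251 or more.

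Among the endocytic receptors of the mannose receptor family, Ly75 was the one called. Mrc1, the mannose receptor itself, stood at 13.21, 12.22 and 13.40 without LPS and at 12.67, 12.28 and 12.94 after it. The difference of -0.32 (SE 0.32) did not pass the test (limma adjusted p = 0.545), and its 95% interval ran from -1.04 to 0.41. Mrc2, a collagen receptor, differed by 0.17 (SE 0.09, adjusted p = 0.243). Of the 8 measured genes of the DC-SIGN family and langerin, 0 were called after LPS by limma or in the paired fit and 0 had an unadjusted p under 0.05, with differences from -0.86 (Cd209c) to 0.50 (Cd207).

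The remaining groups added no other call after LPS. Clec10a encodes a macrophage galactose-type lectin. It stood at 9.24, 6.62 and 9.74 without LPS and at 7.89, 6.57 and 8.06 after it, and the mean difference of -1.02 (SE 0.87) was the largest negative one of the 44, with an adjusted p of 0.476 in limma and 0.060 in the paired fit. It was -1.34, -0.05 and -1.68 within the replicate numbers. Clec4f of Kupffer cells, Clec4g of liver sinusoids, and the tetranectin-type lectin genes Clec3a and Clec3b differed by -0.08 to 0.15. Among the other 7 measured Clec2 genes, differences ran from -0.30 to 0.23 and limma called none, with an adjusted p of 0.090 or more. The growth factor gene Clec11a, the endothelial gene Clec14a, Clec16a and Clec18a differed by -0.17 to 0.19, with adjusted p of 0.091 or more.

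**Figure D2:**
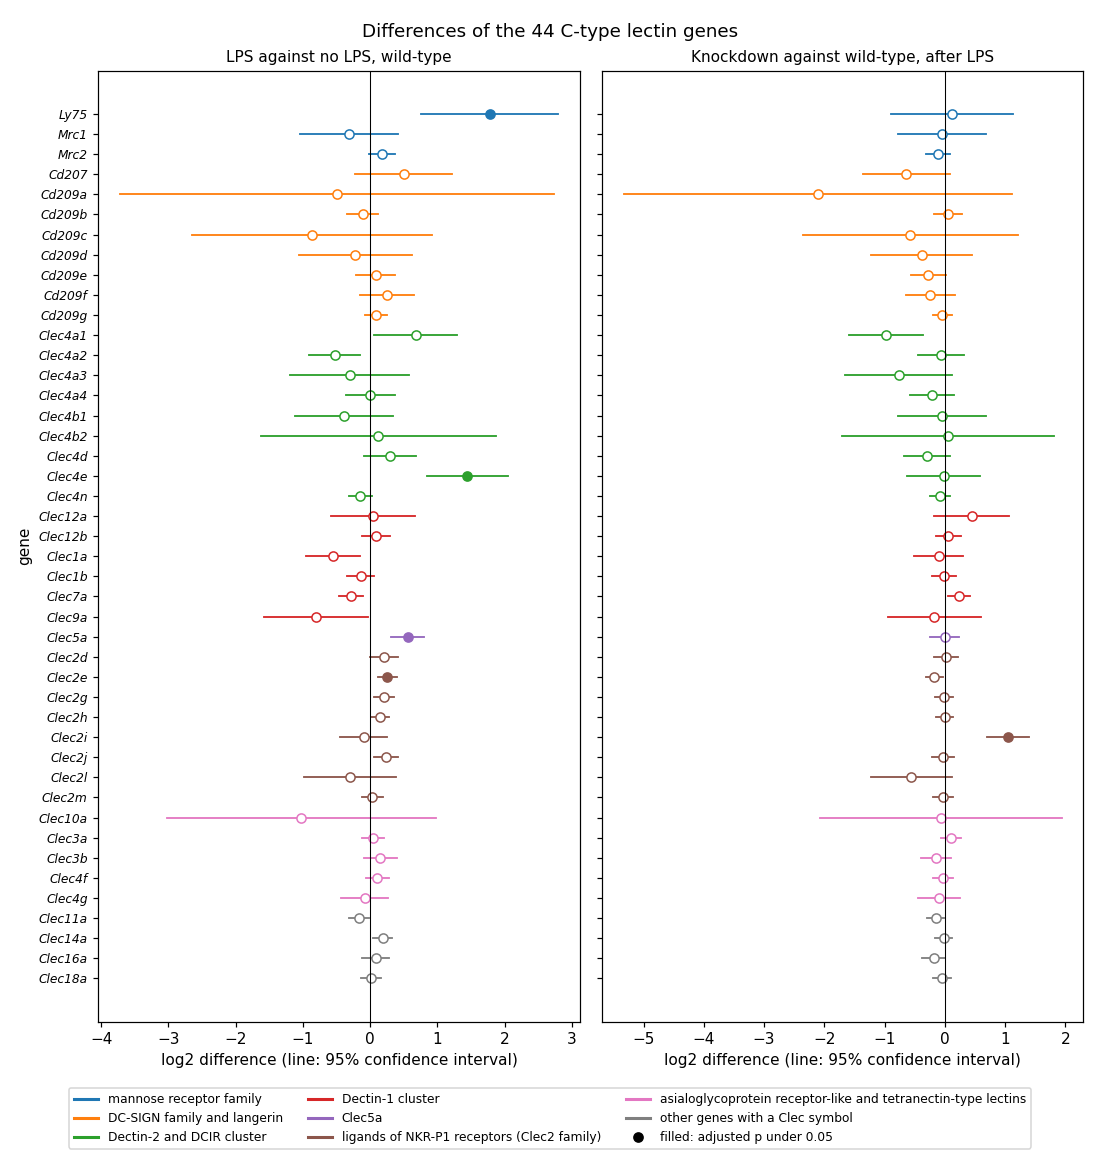
Log2 differences of all 44 genes, with 95% confidence intervals from limma, for LPS against no LPS in wild-type cells (left) and for knockdown against wild-type cells after LPS (right), coloured by family and filled where the adjusted p was under 0.05. The filled points are Ly75, Clec4e, Clec5a and Clec2e on the left and Clec2i on the right, and the widest intervals belong to Cd209a, Clec10a, Cd209c and Clec4b2.

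After LPS, the knockdown differed from wild-type cells in 1 member, Clec2i. This is 2.27% of the members, against 0.762% of all genes called in either direction. In the higher direction the count was 1 of 44 against 0.401% of all genes, and in the lower direction 0 of 44 against 0.361%. The paired fit also called Clec2i alone among the members, and 2.75% of all genes. At an unadjusted p under 0.05, again without a count over all genes, 2 members were higher and 3 lower. The difference was negative for 35 members, and for 59.3% of all genes, with a median of -0.06 against -0.03 over all genes. With the arrays centred on their medians it was negative for 26 members and for 47.1% of all genes. The groups did not overlap for 2 members that were higher and 6 that were lower, against 8.21% and 8.38% of all genes.

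Clec2i encodes a ligand of NKR-P1 receptors, which are carried by natural killer cells. Its level was 7.11, 6.82 and 6.77 in unstimulated wild-type cells, 7.04, 6.69 and 6.67 in LPS-treated wild-type cells, and 7.89, 8.05 and 7.59 in the knockdown. Both wild-type groups overlapped, and every knockdown array was above every wild-type array. The difference from LPS-treated wild-type cells was 1.04 (SE 0.15), or 2.06-fold, with a 95% interval of 0.70 to 1.39 and an adjusted p of 0.029 in limma and 0.012 in the paired fit. It was 0.85, 1.36 and 0.92 within the replicate numbers. The call was lost without the first or the third LPS-treated wild-type array and without any 1 of the knockdown arrays, with differences of 0.94 to 1.17 and adjusted p up to 0.123. It was also lost when the fit held only the 2 groups compared and when all deposited probe sets were tested together. The third unstimulated array enters this comparison only through the pooled spread, and without it the call was lost as well. LPS itself changed Clec2i by -0.10 in wild-type cells (SE 0.15, adjusted p = 0.699).

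The neighbours of Clec2i were not called. In RefSeq's order on chromosome 6, Clec2g follows it directly and 4 other genes lie between Clec2h and Clec2i. The knockdown differences of these genes were -0.02 (SE 0.07) and -0.004 (SE 0.06). Clec2e, at 5.23, 5.23 and 5.19 in the knockdown, differed by -0.17 (SE 0.06, limma adjusted p = 0.258), Clec2d, the ligand of the inhibitory NKR-P1B receptor, by 0.02 (SE 0.09), and Clec2m by -0.03 (SE 0.07). The 95% intervals of Clec2g, Clec2h, Clec2d and Clec2m all lay within -0.19 to 0.22. The 8 natural killer cell markers had a mean level of 5.46 to 5.56 over the 9 arrays, and 0 of 8 were called in the knockdown by limma or in the paired fit (1 higher at an unadjusted p under 0.05).

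**Figure D3:**
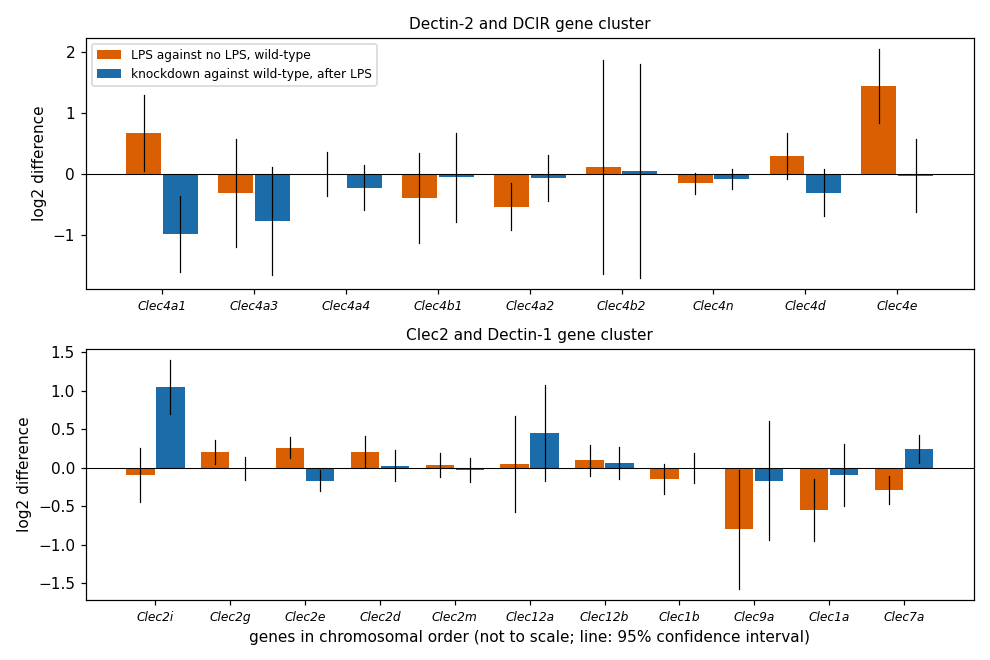
Log2 differences of neighbouring lectin genes, in chromosomal order and not to scale, for LPS against no LPS in wild-type cells and for knockdown against wild-type cells after LPS, with 95% confidence intervals as lines. In the upper cluster Clec4e at one end has the largest LPS difference (1.45), and in the lower cluster Clec2i has the largest knockdown difference (1.04) while Clec2g beside it is at -0.02.

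The other large knockdown differences were negative and did not pass. Cd209a, which encodes mouse DC-SIGN, had the largest, at -2.11 (SE 1.41). Its level was 12.49, 7.70 and 11.86 in unstimulated wild-type cells, 11.62, 8.06 and 10.90 in LPS-treated wild-type cells, and 9.65, 6.88 and 7.73 in the knockdown. The groups overlapped: the second LPS-treated wild-type array was below the first knockdown array. Each knockdown array was below the LPS-treated wild-type array of its number (differences of -1.97, -1.19 and -3.17). The adjusted p was 0.576 in limma and 0.103 in the paired fit.

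Clec4a1 and Clec4a3, members of the DCIR group, were lower on all 3 knockdown arrays than on the LPS-treated wild-type arrays. Clec4a1 stood at 11.39, 10.49 and 11.36 in the knockdown against 11.75, 12.19 and 12.23, a difference of -0.98 (SE 0.27, adjusted p = 0.152 in limma, 0.115 paired). Clec4a3 stood at 11.21, 9.71 and 10.91 against 11.26, 11.22 and 11.64 (and 11.96, 11.11 and 11.96 without LPS), a difference of -0.76 (SE 0.39, adjusted p = 0.460 in limma, 0.163 paired). Cd207, which encodes langerin of Langerhans cell granules, was at 6.27, 5.86 and 6.18 against 7.48, 6.02 and 6.71 (and 6.28, 6.08 and 6.36 without LPS), a difference of -0.64 (SE 0.31, limma adjusted p = 0.445). Values of Cd207 overlapped. The members not named so far in this comparison had differences from -0.57 (Cd209c) to 0.45 (Clec12a, an inhibitory receptor gene).

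The genes that had risen with LPS showed no called difference in the knockdown. Clec4e stood at 13.91, 13.82 and 13.88 in the knockdown, a difference of -0.02 (SE 0.26, 95% interval -0.62 to 0.58). Ly75 stood at 11.07, 11.99 and 10.73, a difference of 0.12 (SE 0.44, interval -0.90 to 1.13). Clec5a stood at 12.93, 12.68 and 12.91, a difference of -0.004 (SE 0.11, interval -0.25 to 0.24). Clec2e was lower on all 3 knockdown arrays than on the LPS-treated wild-type arrays. Its difference was -0.17 (SE 0.06, interval -0.31 to -0.04), and it did not pass the test (limma adjusted p = 0.258). With 3 arrays in each group, the lack of a call does not show that the levels were equal. The intervals rest on a spread pooled over all 3 groups, and the smallest detectable change was not tested. For Clec4e the SD was 0.64 in unstimulated cells, 0.096 in LPS-treated wild-type cells and 0.045 in the knockdown. In the same order it was 0.80, 0.39 and 0.65 for Ly75 and 0.17, 0.11 and 0.14 for Clec5a.

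Clec7a was higher on all 3 knockdown arrays (12.99, 12.97 and 12.96) than on the LPS-treated wild-type arrays (12.57, 12.84 and 12.79). The difference of 0.24 (SE 0.08) did not pass the test (adjusted p = 0.230 in limma, 0.170 paired). Clec4n was at 13.44, 13.26 and 13.41 in the knockdown, a difference of -0.08 (SE 0.07), and Mrc1 at 12.79, 12.21 and 12.73, a difference of -0.05 (SE 0.32). Clec10a stood at 7.72, 6.20 and 8.41 in the knockdown (-0.06, SE 0.87) and Clec9a at 6.81, 7.52 and 6.16 (-0.17, SE 0.34), and neither was called by limma or in the paired fit. Of the 44 genes, the groups did not overlap for Clec2i and Clec7a in the higher direction and for Clec4a1, Clec4a3, Clec4d, Clec2e, Clec11a and Clec16a in the lower direction.

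Set against unstimulated wild-type cells, the LPS-treated knockdown cells had 4 members called higher and 1 lower, 11.4% of the members against 10.9% of all genes. The higher calls, 4 of 44 against 4.23% of all genes, were Clec4e (1.43), Clec5a (0.56), Ly75 (1.89) and Clec2i (0.95, SE 0.15, limma adjusted p = 0.0069). The lower call, 1 of 44 against 6.64% of all genes, was Clec11a, which encodes a secreted growth factor of bone and marrow. Clec11a stood at 7.29, 7.33 and 7.25 without LPS, at 7.18, 7.031 and 7.14 in LPS-treated wild-type cells and at 6.98, 6.90 and 7.025 in the knockdown. The 3 groups did not overlap, and knockdown with LPS was 0.32 below unstimulated wild-type (log2 difference -0.32, SE 0.06, limma adjusted p = 0.016). This comparison shares its arrays with the other comparisons and mixes LPS and knockdown. The paired fit kept these 5 calls and added 6 lower ones, with 14.3% of all genes called. These were Cd209a (-2.60, paired adjusted p = 0.022), Clec2l (-0.85, 0.016), Clec1a (-0.66, 0.025), Clec4a3 (-1.07, 0.028), Clec9a (-0.98, 0.037) and Clec4a2 (-0.59, 0.049). Without the third unstimulated array 2 members and 5.29% of all genes were called, and without the second 8 members and 10.6%. Ly75 lost its call here with only the 2 groups in the fit and without the first or the third unstimulated array or the first or the second knockdown array (adjusted p up to 0.077). Clec5a lost it without the first or the third array of either group (up to 0.065), and Clec4e without the third unstimulated array (0.054).

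Several of these genes differed more between replicate numbers than between groups. The pooled standard deviation within groups had a median of 0.189 over the 44 members and 0.123 over all genes, and it was above 0.5 for 7 members (15.9%, against 2.58% of all genes). It was 2.03 for Cd209a, which put that gene at the 99.98th percentile of all genes, 1.26 for Clec10a, 1.12 for Cd209c and 1.10 for Clec4b2. On the arrays numbered 2, 12 of the 44 members were at their lowest in all 3 groups (27.3%, against 6.65% of all genes), and 0 members were at their highest in all 3 groups (7.59% of all genes). The 12 were Mrc1, Clec10a, Cd209a, Cd209c, Cd209d, Cd207, Clec4a3, Clec4a4, Clec4b2, Clec4g, Clec4n and Clec2l. This pattern was noticed in the data and is given as a description. A dimmer probe set of Clec4g, not used in the main fit, did not show it. That probe set stood at 5.96, 6.16 and 5.96 without LPS, at 6.15, 6.07 and 5.92 with it, and at 5.93, 5.87 and 5.82 in the knockdown. On the arrays numbered 1, 6 members were highest in all 3 groups (13.6%, against 4.38% of all genes) and 0 lowest (against 3.56%). On the arrays numbered 3, 4 members were lowest (9.09%, against 3.69%), namely Clec1a, Clec2i, Clec9a and Ly75, and 2 were highest (4.55%, against 4.17%).

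The array numbered 2 was lower than the mean of the other two by 4.48 for Cd209a in unstimulated cells (log2 difference -4.48), by -3.20 in LPS-treated wild-type cells and by -1.82 in the knockdown. For Clec10a these differences were -2.87, -1.41 and -1.87. For Clec4b2, a member of the activating DCAR group, they were -1.60, -1.42 and -2.10. Cd209c stood at 9.9999, 6.51 and 8.78 without LPS, at 8.23, 6.78 and 7.70 with it, and at 7.34, 6.79 and 6.85 in the knockdown, so its spread was widest in unstimulated cells. Mrc1 was 1.09, 0.52 and 0.55 lower on those arrays (log2 differences of -1.09, -0.52 and -0.55). Clec4e went the other way in unstimulated cells, where its second array was the highest.

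**Figure D4:**
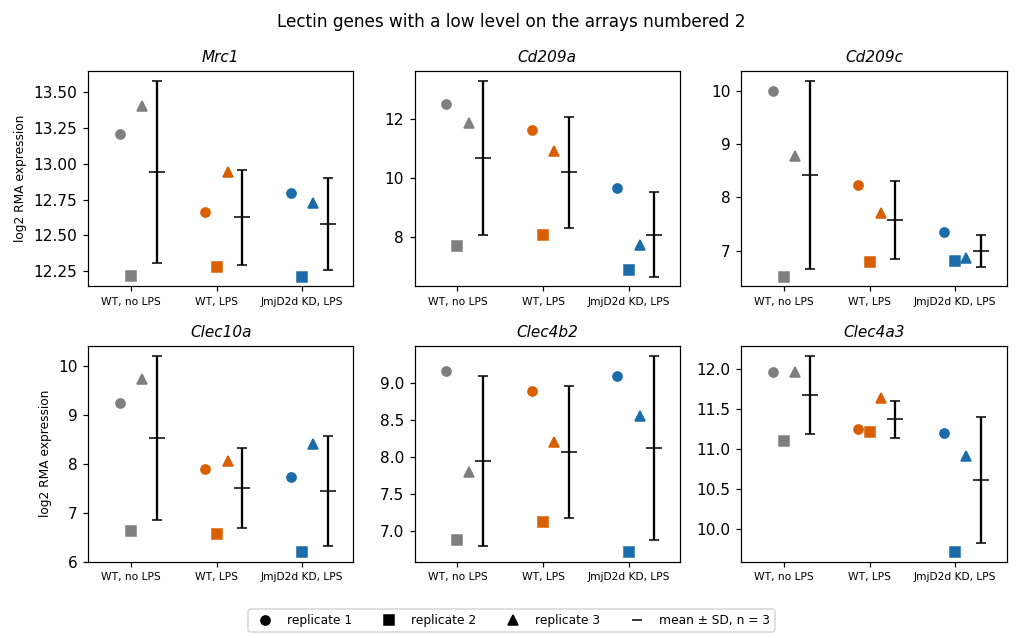
Log2 expression (RMA) of 6 C-type lectin genes on each array by group, with squares for replicate 2 and bars for the mean ± SD of 3 arrays. In all 6 panels the square is the lowest value of its group, and for Cd209a it lies 4.48 below the mean of the other two unstimulated arrays.

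The mean levels of neutrophil markers and of dendritic cell markers were also low on these arrays. The mean level of 8 neutrophil markers ran from 8.17 to 9.91 without LPS, from 8.72 to 10.77 with LPS and from 7.41 to 10.11 in the knockdown, and was lower on the array numbered 2 than on the others (-1.08, -1.66 and -2.59). Not every neutrophil marker did so: Elane stood at 9.51, 9.31 and 8.59 and Mpo at 8.01, 7.87 and 6.92 in unstimulated cells. The mean of 10 dendritic cell markers was also lower there, by -0.49, -0.47 and -0.42. Single dendritic cell markers differed from this: in the knockdown Itgax stood at 12.79, 12.31 and 12.29 and Irf8 at 8.985, 8.78 and 8.52, lowest on the third array. The same differences of the list mean on the array numbered 2 were 0.03, 0.14 and -0.15 for monocyte and macrophage markers and 0.008, -0.03 and -0.04 for natural killer cell markers. They were 0.09, -0.33 and -0.27 for mast cell markers, and 0.29, -0.06 and -0.16 for platelet markers. The mean of the dendritic cell markers ran from 9.48 to 10.12 without LPS, from 9.57 to 10.23 with LPS and from 8.65 to 9.43 in the knockdown. In the knockdown comparison 0 of the 10 dendritic cell markers were called by limma, 6 were lower at an unadjusted p under 0.05, and 5 were lower in the paired fit (paired adjusted p of 0.0060 for Irf4, 0.020 for Irf8, 0.023 for Ciita, and 0.043 for Batf3 and for H2-Ab1), beside the lower values of Cd209a and Clec4a3. Of the platelet markers 1 of 4 fell in the knockdown (Ppbp, -2.27), beside a difference of -0.01 for the platelet receptor gene Clec1b. Limma called 0 of 8 monocyte and macrophage, 0 of 7 mast cell, 0 of 5 endothelial and 0 of 3 lymphocyte markers there. At an unadjusted p under 0.05, 2, 4, 0 and 1 of them were lower, and 1 monocyte and macrophage marker was higher. Among these the paired fit called 2 mast cell markers lower and no other marker. Of the 8 neutrophil markers, limma called 0 in the knockdown and 2 were lower at an unadjusted p under 0.05. The paired fit called 1 of the 8 lower, Mpo (-1.74, paired adjusted p = 0.032). Over all genes, limma called 0.361% lower in the knockdown, and the paired fit called 247 of 19938 lower. The part of these cell markers in the levels of the lectin genes was not tested.

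When the arrays numbered 2 were left out in every group, an alternative chosen after seeing the data, 9 members were called after LPS and 24.6% of all genes. Clec4e, Ly75, Clec5a and Clec2e were higher, and Mrc1, Clec10a, Clec1a, Clec4a2 and Clec4b1 were lower. Clec10a then differed by -1.51. In the knockdown comparison limma then called 0 members and 3.35% of all genes, and Clec2i stood at 0.89 with a limma adjusted p of 0.063 (unadjusted p under 0.05 for 10 members that were lower and 3 that were higher). Against unstimulated cells 14 members were called in the knockdown, 5 higher and 9 lower, with 19.1% of all genes.

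The genes of proteins that pass on signals from these receptors were taken from lists of known components, and their RNA was read. Of 9 measured genes of the CARD9 complex and the NF-kB arm, 7 rose with LPS and 1 fell, against 3.99% and 6.86% of all genes. The NF-kB subunit genes Nfkb2 (1.65), Relb (1.23), Rel (1.11) and Rela (0.48), the kinase gene Ikbkb (0.56), and Malt1 (0.86) and Bcl10 (0.67) rose. Card9 itself fell, from 11.33, 11.11 and 11.37 to 10.49, 10.52 and 10.61, a difference of -0.73 (limma adjusted p = 0.0040). In the knockdown Card9 stood at 10.99, 10.86 and 11.18, all above the LPS-treated wild-type arrays, by 0.47 (SE 0.10, adjusted p = 0.081 in limma, 0.029 paired). Limma called 0 of the 9 in the knockdown (unadjusted p under 0.05 for 1 that was higher and 3 that were lower). The median of the list was 0.67 after LPS, against 0.04 over all genes.

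Among 11 measured adaptors and proximal kinases, 3 rose with LPS (Syk by 0.96, Src by 1.19 and Prkcd by 0.30) and 1 fell (Pik3cd, -1.04). Over all genes, 3.99% rose and 6.86% fell. The adaptor genes Fcer1g (-0.03, SE 0.05) and Tyrobp (-0.17, SE 0.06) were not called. In the knockdown 0 of 11 were called by limma, 2 were lower at an unadjusted p under 0.05, and Fyn was lower in the paired fit (-1.49, paired adjusted p = 0.042). Of 6 phosphatases and brakes, Inpp5d, whose product SHIP acts on membrane lipids, fell with LPS (-1.17), Cblb rose in the paired fit alone (0.62, paired adjusted p = 0.046), and 0 were called in the knockdown by limma or in the paired fit (1 lower at an unadjusted p under 0.05). The median difference after LPS was -0.03 for the adaptors and kinases and 0.22 for the phosphatases and brakes, against 0.04 over all genes. The lists were described and not tested as sets.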

How the data were processed

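RNA levels were read from the values of 9 mouse gene arrays in 3 groups of 3. The authors deposited log2 values made with RMA, which corrects background, normalizes the arrays to each other and summarises the probes of a set. The submitters' processing notes name RMA without a version. No further normalization was applied. Of 35556 probe sets, 21789 named 1 gene and were used. Probe sets that named several genes (1621) or none (12146) were left out. Symbols were updated through RefSeq's gene table for GRCm38.p6, which matched 21698 of the probe sets, and the other 91 kept the platform's symbol. Each of 19938 genes was represented by its probe set with the highest mean.

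Group means were fitted with limma 3.58.1 in R 4.3.3, with moderated two-sided tests (6 residual and 2.31 prior degrees of freedom) and Benjamini-Hochberg adjustment over all genes. The scripts were tested on simulated data with independent noise on each array and shifts larger than the called differences of the members. That test did not cover arrays correlated by replicate number or smaller differences. The number of arrays limits the precision. The labels number the replicates as biological, and each of the 9 same-numbered pairs had positively correlated deviations from the group means (0.14 to 0.48), against -0.41 to 0.25 over the 18 remaining pairs. The main fit nevertheless left the replicate number out, and only the paired fit used it to pair the arrays. Unless the paired fit is named, calls, standard errors and intervals came from fits without that number. The paired fit adds the number as a block (4 residual and 2.77 prior degrees of freedom).

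The members, the lists and the tests were chosen with earlier results of these data known. Values of each array are given for Mrc1, Ly75, Clec7a and Clec4n, for every called member, and for the 5 members with the largest difference in each of the first 2 comparisons. Other members given singly, such as Clec1a and Clec4a2, were chosen after their values were seen. Alternatives were another normalization, centring, a filter on dim genes, all probe sets of a gene, another variance model, only the compared groups, the replicate block, all probe sets tested together, and each array left out.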

Additional observations from a re-analysis of the deposited data

How the results depend on the processing

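The 3 counts of called members were recomputed under each alternative, as were the differences that were called or among the 5 largest, none of which changed direction. Over all 44 members, the sign changed under at least 1 alternative for 11 after LPS, for 22 in the knockdown (Clec4e, Clec5a, Ly75 and Mrc1 among them) and for 9 in the third comparison. After LPS, 4 members were called in the fit reported, 2 with only the compared groups in the fit, 0 to 6 with 1 array left out (0 without the third unstimulated or the third LPS array), and 9 without the arrays numbered 2. In the knockdown, 1 was called, 0 with only the compared groups, 0 with all deposited probe sets tested together, 0 to 1 with 1 array left out, and 0 without the arrays numbered 2. For LPS-treated knockdown against unstimulated cells, 5 were called, 11 with the replicate block, 2 to 8 with 1 array left out, and 14 without the arrays numbered 2, which was chosen after seeing the data. The replicate block gave 6 members after LPS and 1 in the knockdown. Over all genes, the called share ran from 4.47% to 24.6% after LPS, from 0.0903% to 3.35% in the knockdown and from 5.29% to 19.1% in the third comparison. The cause of these changes was not tested.

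Another quantile normalization called 3 members higher and 2 lower after LPS (Clec11a and Clec7a lower) in place of 4 and 0, and 4 and 2 in place of 4 and 1 in the third comparison. The share of higher calls among all genes in the third comparison moved from 38.9% to 48.3% with arrays centred on their medians. Clec4e kept its LPS call under 13 of 15 alternatives (adjusted p up to 0.055), Clec5a under 12 of 15 (up to 0.066), Ly75 under 8 of 15 (up to 0.136) and Clec2e under 7 of 14 (up to 0.118). Without the dim genes Clec2e could not be tested. Clec2i kept its knockdown call under 7 of 15 (adjusted p 0.012 to 0.123). In these counts, the single arrays left out were those of the 2 groups compared. Without the third unstimulated array, Clec2i also lost its knockdown call. Without the first knockdown array, Ly75 and Clec2e also lost their LPS calls, and without the third knockdown array Clec2e did. Probe sets near the lower end of the arrays' range, those of 9 members, bound what a small difference can show.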
